A study of Danio rerio with 13 samples.

Results

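The genes described here are a set of 5 that leukocytes and injured tissue express: the matrix metalloproteinase genes mmp9 and mmp13a, the macrophage receptor gene marco, the leukocyte actin-bundling gene lcp1 and the phagocyte oxidase gene ncf1. They were chosen by the gene symbol of the array's platform annotation, which gave 1 probe set per gene, or 5 of the 15502 probe sets analysed and 5 of 8793 named genes. The set was proposed with results of these arrays in view: mmp13a and mmp9 had been seen high in atg7 hearts against control morpholino, and mmp13a in the knockdown hearts together. For the 5 genes, comparisons with control morpholino and comparisons of the atg7 arrays are therefore given as descriptions with no p-value. Comparisons of the other groups with uninjected hearts carry limma's adjusted p, but they use arrays that were part of those earlier results, and no independent evidence is drawn from them.

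RNA came from hearts isolated from whole zebrafish embryos of 3 days after fertilization and was measured on 13 1-colour Affymetrix arrays. The groups were uninjected embryos (3 arrays) and embryos injected at the 1-cell stage with a control morpholino (2 arrays), an atg5 morpholino (3 arrays), a becn1 morpholino (3 arrays) or an atg7 morpholino (2 arrays). A morpholino is an antisense oligonucleotide that blocks the translation or splicing of its target. The 3 targeted genes act in autophagy, the delivery of cytoplasm to lysosomes. Strain, morpholino dose and sequence, and the number of embryos pooled per array are not given in the sources used here, so p-values reflect the spread among the prepared samples alone. An array is called by its group and title number, and no control morpholino array is numbered 1.

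Matrix metalloproteinases are secreted or membrane-bound proteases that use zinc to cut extracellular matrix. Mmp9 is a gelatinase that cleaves denatured and basement membrane collagen, and Mmp13 is a collagenase that cleaves fibrillar collagen. In zebrafish larvae both genes are known to be switched on in epithelium and in leukocytes at wounds. Marco is a scavenger receptor of macrophages that binds bacteria and debris. Lcp1, also called L-plastin, bundles actin in all leukocytes, and Ncf1, or p47phox, is the cytosolic subunit that switches on the superoxide-producing oxidase of neutrophils and macrophages.

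Values are signals on the scale of the deposited intensities after quantile normalization of the 13 arrays, and signals under 16 were treated as weak. mmp9 and mmp13a were never weak, marco was weak on 4 arrays, ncf1 on 3 and lcp1 on 1. A probe set entered the tests if it exceeded a signal of 28.1, the 40th percentile, on at least 2 arrays, and all 5 did. mmp9 and mmp13a exceeded it on all 13 arrays. marco and ncf1 exceeded it on 5 and 2 knockdown arrays and on 0 control arrays, so they entered the tests through the groups in which they were high. lcp1 exceeded it on 3 control and 2 knockdown arrays.

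The median deposited intensity of an array was 32.4 to 65.4, and 25.3% to 35.6% of its probe sets lay under 16. Of the targeted genes, atg5 had a signal of 282 to 307 in atg5 hearts and 234 to 298 in the 5 control arrays, with its stronger probe set. Whether the atg5 morpholino blocks translation or splicing is not given, so its RNA level does not check the label. No probe set carried becn1 or atg7 as its only gene symbol, so these genes were not analysed here. Heart muscle transcripts differed between the arrays of a group. The cardiac myosin light chain gene myl7 had a signal of 919 on atg5 1, 769 on becn1 1 and 1067 on atg7 1, against 99.3 to 345 on the other 10 arrays. The mean log2 level of 13 heart muscle genes was 7.60 to 8.03 on those 3 arrays and 6.14 to 7.06 on the other 10, and their summed signal was 5330 to 11382 in the atg7 group against 4839 to 6752 in the uninjected group. Markers of epidermis and of red blood cells were also strong on every array, the keratin gene krt4 at 2636 or more and the globin gene hbae3 at 7407 or more. GAPDH signal from 3' over that from 5' probe sets, a ratio that rises as RNA degrades, reached 5.98 on atg7 2 against 2.30 to 3.28 elsewhere. The same ratio for the actin gene acta1 was 86.2 on atg7 2 against 8.03 to 29.9 elsewhere.

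mmp13a, the collagenase gene, had its highest signals with the atg7 morpholino. Its signal was 626 and 280 on the atg7 arrays, 203, 126 and 143 on the becn1 arrays and 201, 125 and 126 on the atg5 arrays. It was 97.9, 66.4 and 83.4 on the uninjected arrays and 129 and 51.3 on the control morpholino arrays. Both atg7 arrays lay above all other arrays, all knockdown arrays lay above all uninjected arrays, and the atg5 and becn1 arrays overlapped only control 2 among the controls. The share of all probe sets with all knockdown arrays above all uninjected arrays was not computed. For single knockdowns it was 12.7% (atg5), 10.5% (becn1) and 24.6% (atg7), so nothing is read from this order. The mean log2 level was 8.71 ± 0.82 (SD, n = 2) in atg7, 7.27 ± 0.35 (SD, n = 3) in becn1, 7.20 ± 0.39 (SD, n = 3) in atg5, 6.35 ± 0.28 (SD, n = 3) in uninjected and 6.35 ± 0.94 (SD, n = 2) in control morpholino hearts.

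mmp9, the gelatinase gene, was ordered in a like way. Its signal was 444 and 199 on the atg7 arrays, 159, 130 and 86.7 on the atg5 arrays and 159, 74.8 and 86.9 on the becn1 arrays. It was 101 and 68.6 with control morpholino and 101, 46.9 and 80.4 in uninjected hearts. The atg7 arrays again lay above all others, while the atg5 and becn1 arrays overlapped both control groups. The mean log2 level was 8.21 ± 0.82 (SD, n = 2) in atg7, 6.93 ± 0.45 (SD, n = 3) in atg5, 6.66 ± 0.58 (SD, n = 3) in becn1, 6.38 ± 0.40 (SD, n = 2) in control morpholino and 6.18 ± 0.57 (SD, n = 3) in uninjected hearts.

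marco, the macrophage scavenger receptor gene, was weak in uninjected hearts and higher in knockdown hearts. Its signal was 9.999, 7.07 and 13.3 on the uninjected arrays and 13.8 and 17.2 on the control morpholino arrays. The atg5 arrays gave 37.1, 19.3 and 16.8, the becn1 arrays 67.6, 24.0 and 29.6, and the atg7 arrays 38.4 and 87.1. All 8 knockdown arrays lay above the 3 uninjected arrays, and atg5 3 alone lay below the higher control morpholino array. The share of all probe sets with that order was not computed. As marco entered the tests through knockdown arrays, nothing is read from the order. Unlike for the metalloproteinase genes, the higher atg7 array was atg7 2, which had the low heart muscle level and the high 3' to 5' ratios.

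ncf1 varied over a narrow and weak range. Its signal was 27.8 and 32.9 in atg7, 31.9, 22.5 and 22.2 in atg5, 19.8, 15.6 and 18.4 in becn1, 21.3 and 15.7 in control morpholino, and 10.1, 18.2 and 17.1 in uninjected hearts. The atg7 and atg5 arrays all lay above the 5 control arrays, and the becn1 arrays fell among those controls. The share of all probe sets with that order was not computed. As ncf1 entered the tests through knockdown arrays, nothing is read from the order.

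lcp1 showed no order by group. Its signal was 27.1 and 32.6 in atg7, 26.6, 16.3 and 42.8 in becn1, 26.1, 10.9 and 22.9 in atg5, 17.5 and 48.1 in control morpholino, and 25.5, 30.5 and 38.0 in uninjected hearts. Each group overlapped its neighbours in the order of means, while the atg5 arrays all lay below the atg7 arrays. The lowest and the highest control array were both of control morpholino.

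**Figure D1:**
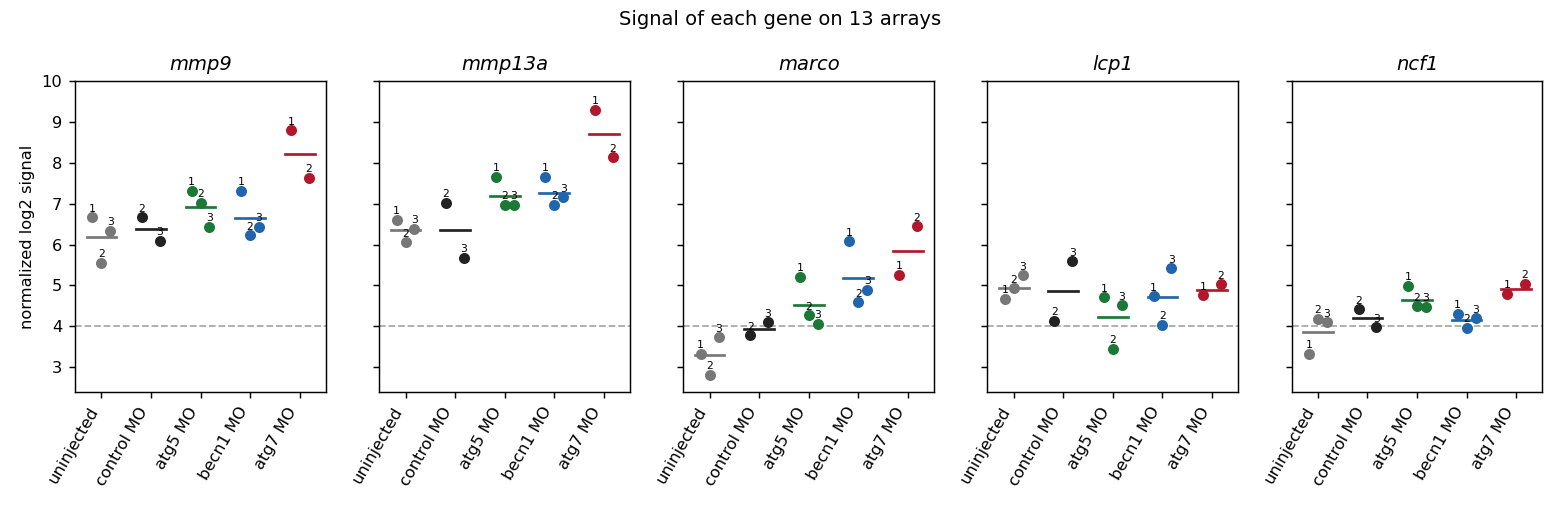
Normalized log2 signal (vertical axis) of the 5 genes on each of the 13 arrays, by group; points are arrays with their replicate number, bars are group means and the dashed line is a signal of 16. The atg7 arrays are the highest for mmp9 and mmp13a, marco is lowest in uninjected hearts, and for lcp1 each group overlaps both control groups.

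In the order of group means, neighbours were mostly closer than their spread. For mmp13a the step from atg7 to becn1 was 1.44 on the log2 scale, or 2.71 times the residual SD, and the arrays did not overlap. Its step from atg5 to uninjected was 0.85, or 1.59 times the residual SD, likewise without overlap. The becn1 and atg5 means of mmp13a lay 0.07 apart, and the uninjected and control morpholino means 0.00 apart. For mmp9 the step from atg7 to atg5 was 1.29 with no overlap, and each of the remaining steps was at most 0.28 with overlapping arrays. For marco the 4 steps were 0.57 to 0.67, and only control morpholino and uninjected did not overlap. For ncf1 the largest step, 0.46 between atg5 and control morpholino, was also without overlap.

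Control morpholino injection by itself moved none of the 5 genes past the threshold, an adjusted p under 0.05 over 10307 probe sets. Against uninjected hearts mmp9 differed by 0.20 (SE 0.44) on the log2 scale, mmp13a by -0.00 (SE 0.42) and lcp1 by -0.09 (SE 0.51). marco differed by 0.65 (SE 0.51) and ncf1 by 0.32 (SE 0.34), or by 0.05 and 0.11 when signals under 16 are set to 16, called floored from here on. The limma adjusted p was 1 for all 5 genes. Of all probe sets 0% were called, and 266, or 2.58%, had an unadjusted p under 0.05, none of the 5 genes among them. Only marco lay higher without overlap, as did 10.9% of all probe sets. The 95% interval of the mmp13a difference ran from -0.91 to 0.90. This interval is not adjusted over the probe sets, so changes beyond it could also have missed the threshold. Leaving out control 2 or control 3 moved the mmp13a difference to -0.67 or 0.66.

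With the atg5 morpholino, 4 of the 5 genes lay higher than in uninjected hearts and none passed the threshold. mmp13a was 1.80-fold higher (0.85, SE 0.37) and ncf1 1.47-fold higher floored, each with no overlap of arrays. marco was 1.43-fold higher floored, with all atg5 arrays above all uninjected arrays. mmp9 differed by 0.74 (SE 0.39) with overlapping arrays, and lcp1 was lower (-0.73, SE 0.45, or -0.54 floored). The limma adjusted p was 0.395 for mmp13a, 0.378 for marco, 0.380 for ncf1, 0.466 for mmp9 and 0.536 for lcp1. Here 3 genes lay higher without overlap, as did 12.7% of all probe sets. Of all probe sets 0% were called, and 1255, or 12.2%, had an unadjusted p under 0.05, mmp13a, marco and ncf1 among them. As mmp13a had been seen high in the knockdown hearts together and marco and ncf1 entered through knockdown arrays, nothing is read from these counts.

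With the becn1 morpholino, marco differed most from uninjected hearts among the 5 genes. Its difference was 1.89 (SE 0.46), or 2.27-fold floored, with an adjusted p of 0.158 in limma's fit. mmp13a was 1.89-fold higher (0.92, SE 0.37, limma adjusted p = 0.288), again without overlap. mmp9 differed by 0.48 (SE 0.39), ncf1 by 0.07 floored and lcp1 by -0.22 (SE 0.45), with limma adjusted p-values of 0.552, 0.650 and 0.834. None of the 5 was called, against 0.0097% of all probe sets, and mmp13a and marco were among the 15.6% with an unadjusted p under 0.05. Arrays lay higher without overlap for 2 of the 5 genes and for 10.5% of all probe sets. Since mmp13a had been seen high in the knockdown hearts together and marco entered through knockdown arrays, nothing is read from these counts.

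With the atg7 morpholino the differences from uninjected hearts were the largest of the 3 knockdowns for mmp13a, mmp9, marco and ncf1. mmp13a was 5.14-fold higher (2.36, SE 0.42) and mmp9 4.09-fold higher (2.03, SE 0.44). marco was 3.62-fold higher floored and 5.91-fold without the floor, and ncf1 1.77-fold higher floored. lcp1 differed by -0.06 (SE 0.51), with a 95% interval from -1.15 to 1.04. mmp13a, mmp9 and marco were among the 3.08% of probe sets called in this comparison, and ncf1 and lcp1 were not. As the atg7 arrays helped to choose the genes, and marco entered through the knockdown arrays, nothing is read from that count. Arrays lay higher without overlap for 4 of the 5 genes and for 24.6% of all probe sets. The calls rest on few arrays: of the 5 genes 0 were called without atg7 1, without uninjected 1 or without uninjected 3, 1 was called without atg7 2 or with the arrays numbered 1 left out, and 2 were called without uninjected 2. Without atg7 1 the difference was 1.78 for mmp13a and 1.45 for mmp9, and without atg7 2 it was 2.94 and 2.61. With 1 atg7 array left, that array is assumed to vary like the other groups.

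Against control morpholino the same atg7 arrays gave differences of 2.36 (SE 0.46) for mmp13a, 1.83 (SE 0.48) for mmp9, 1.80 floored for marco, 0.71 floored for ncf1 and 0.04 (SE 0.56) for lcp1. The atg7 arrays lay above both control morpholino arrays for all of these but lcp1, as they did for 23.8% of all probe sets. In this comparison 0 of the 5 genes and 0.0582% of all probe sets were called. For atg5 the differences were 0.85 (SE 0.42) for mmp13a, 0.54 (SE 0.44) for mmp9 and 0.47 floored for marco. For becn1 they were 0.92 (SE 0.42), 0.28 (SE 0.44) and 1.13 floored. The lcp1 differences were -0.45 floored in atg5 and -0.13 (SE 0.51) in becn1, and those of ncf1 were 0.45 and -0.04 floored. Of all probe sets 0% were called in either comparison, and 2.41% in atg5 and 5.28% in becn1 had an unadjusted p under 0.05. Only ncf1 in atg5 and only marco in becn1 lay higher without overlap, as did 11.2% and 10.5% of all probe sets. No gene of the 5 had all 8 knockdown arrays above all 5 control arrays, which held for 0.757% of all probe sets. Control 2 and control 3 differed enough to move these values: the mmp13a difference of atg5 was 1.52 without control 2 and 0.18 without control 3. All of these comparisons share the 2 control morpholino arrays, and those above share the 3 uninjected arrays.

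**Figure D2:**
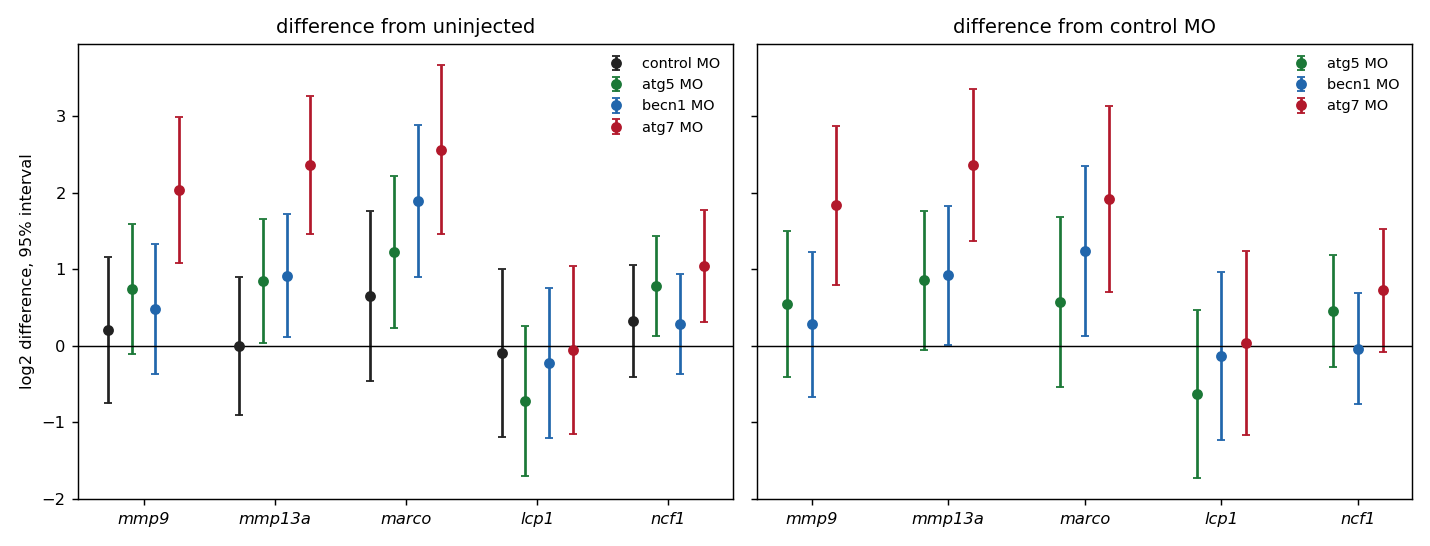
Log2 difference (vertical axis) of each gene from uninjected hearts (left) and from control morpholino hearts (right), with signals not floored; points are limma estimates and bars 95% intervals. The atg7 values of mmp13a, mmp9 and marco are the highest of their genes in both panels, and all lcp1 intervals include 0.

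The atg7 hearts were also set against the mean of the atg5 and becn1 hearts. mmp13a was 2.79-fold higher (1.48, SE 0.37) and mmp9 2.68-fold higher (1.42, SE 0.39), both without overlap. marco was 2.01-fold higher (1.00, SE 0.46), with overlap. ncf1 differed by 0.51 (SE 0.30) and lcp1 by 0.33 floored. Same-numbered knockdown arrays deviated together, and with the replicate number as a block the lcp1 difference, not floored, went from 0.42 to 0.67, while no call changed. None of the 5 was called in this comparison, against 0.0291% of all probe sets, and 5.64% of all probe sets lay higher without overlap. Of all probe sets 4.44% had both atg7 arrays above the other 11 arrays, as mmp9 and mmp13a did.

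Within each knockdown group mmp13a was highest on the array numbered 1, as were the heart muscle genes, and whether the 2 are related was not tested. The 4 arrays numbered 1 were left out in an alternative chosen after the data were seen. The difference of atg7 2 from uninjected hearts was then 1.91 for mmp13a, 1.70 for mmp9 and, not floored, 3.17 for marco. The remaining uninjected signals of marco, 7.07 and 13.3, were weak, and atg7 2 had the highest GAPDH 3' to 5' ratio, 5.98. The atg5 and becn1 differences of mmp13a were then 0.75 and 0.85, close to those with all arrays. atg7 2 had a heart muscle level of 6.23, lower than the 6.29 to 7.06 of the 5 control arrays, and the second highest mmp13a and mmp9 signals of the 13 arrays.

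mmp9 and mmp13a followed each other from array to array. Pearson's r of their log2 levels was 0.93 over the 13 arrays and Spearman's rho 0.85, and r was 0.84 without the 2 arrays farthest from the median mmp9 level and 0.81 without the atg7 arrays. Once group means were subtracted r was 0.84, so the likeness was also present among arrays of a group. Of 7668 named probe sets, that of mmp13a was the most like mmp9, and that of mmp9 the most like mmp13a. marco followed mmp13a over the 13 arrays (r 0.73, rho 0.84). Here r was 0.95 without the 2 arrays farthest from the median mmp13a level and 0.75 without the atg7 arrays. With group means subtracted r was 0.11. In the atg7 and control morpholino groups, of 2 arrays each, the array higher in mmp13a was the lower in marco. lcp1 had r of -0.16 with mmp13a, 0.08 with marco and -0.09 with ncf1. These values are descriptions over arrays that share groups and preparation, and the members were chosen partly for standing high in the same group.

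**Figure D3:**
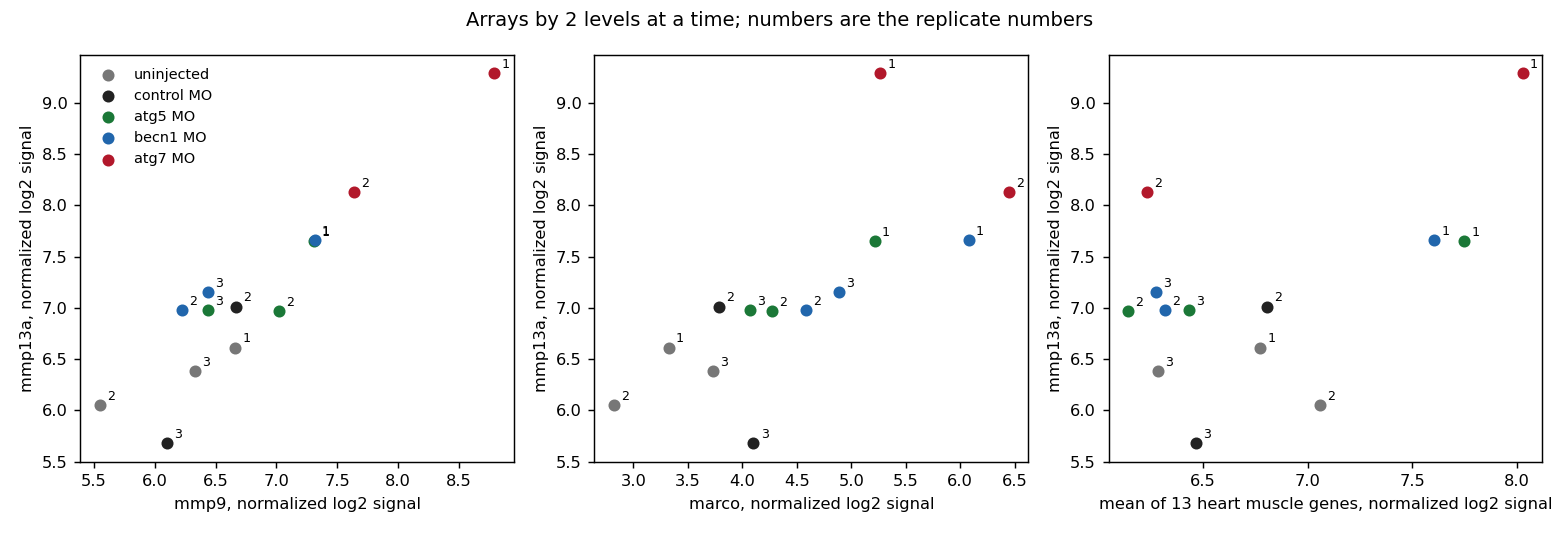
Normalized log2 signal of mmp13a (vertical axis) on each array against mmp9 (left), marco (middle) and the mean of 13 heart muscle genes (right); points are arrays coloured by group, with their replicate number. mmp9 and mmp13a rise together over all arrays, and on the right atg7 2 is high in mmp13a at a low heart muscle level.

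The other named probe sets most like mmp9 were those of isoc1 (r 0.92) and eif2d (0.91), a translation factor. For mmp13a they were fan1 (0.92), a DNA repair nuclease, and rbbp9 (0.92). marco was followed by dnttip2 (0.90), wdr3 (0.90) and wdr5 (0.90), of which wdr3 acts in ribosome assembly and wdr5 in histone methylation. For ncf1 they were nadk2 (0.89), the mitochondrial NAD kinase, cth (0.87) and ufd1l (0.86). For lcp1 they were pdhb (0.84), a subunit of pyruvate dehydrogenase, the splicing factor gene sf3b1 (0.79) and ddx31 (0.79). Apart from mmp9 and mmp13a themselves, no gene of the leukocyte lists below was among the 3 most alike for any of the 5. These lists hold few of the 7668 named probe sets compared, so nothing is read from this absence.

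Other leukocyte genes differed less from uninjected hearts than mmp9, mmp13a and marco did in the atg7 group, mpx excepted. However, mmp9 and mmp13a were chosen with the atg7 arrays in view, and marco entered the tests through knockdown arrays. Nothing is therefore read from this ranking. Of the neutrophil markers other than the 5 genes, 7 of 22 were measured above the filter, 3 of them higher in atg7 than in uninjected hearts and 0 called, with a median log2 difference of -0.08 (0.01 over all probe sets tested). Against control morpholino 5 of the 7 were higher, with a median of 0.46, so sign and size depended on the reference group. mpx, the myeloperoxidase gene of neutrophils, had a signal of 511 and 207 in atg7, 348, 111 and 53.6 in atg5, 219, 157 and 109 in becn1, 177 and 51.6 in control morpholino, and 156, 74.1 and 24.2 in uninjected hearts. Its difference of 2.32 in atg7 had an SE of 0.84, since the arrays of each group spread widely. The lysozyme gene lyz differed by 0.65 (SE 0.21) in atg7, 0.53 (SE 0.19) in becn1 and -0.01 (SE 0.19) in atg5 hearts, with none called. The summed signal of the 7 neutrophil genes was 3421 to 3803 in atg7 and 2432 to 2483 in uninjected hearts, and lyz supplied most of it. Their mean log2 level, with each gene weighted alike, overlapped, at 6.82 to 7.54 in atg7 and 6.22 to 7.16 in uninjected hearts.

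Of the macrophage markers other than marco, 9 of 29 passed the filter. In atg7 hearts 6 of the 9 were higher than in uninjected hearts, with a median of 0.30 and 0 called, and 7 of the 9 were higher than with control morpholino (median 0.29). The strongest signals were those of marcksl1b (-0.10, SE 0.12), the apolipoprotein gene apoeb (0.30, SE 0.31) and the lysosomal protease gene ctsd (0.21, SE 0.21), which other tissues express too. The summed signal of the 9 genes overlapped between atg7 (5335 to 5634) and uninjected hearts (5155 to 5418). Their mean log2 level, with each gene weighted alike, did not: it was 7.84 to 7.86 in atg7 and 7.42 to 7.52 in uninjected hearts. It was 7.38 to 7.73 in control morpholino, 7.52 to 7.89 in atg5 and 7.53 to 7.81 in becn1 hearts. The largest macrophage differences, named here after their values were seen, were those of the cathepsin S genes ctss2.1 (1.39, SE 0.38) and ctss2.2 (0.85, SE 0.28). csf1ra, a growth factor receptor of macrophages, was under 16 on all 13 arrays, and the pan-leukocyte phosphatase gene ptprc on 10. The signal of ptprc was 17.3 on becn1 3, 17.7 on atg7 1 and 18.7 on atg7 2. Neither gene passed the filter, so no difference was fitted for them.

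Of the broader list of leukocyte genes, 8 of 28 beside lcp1 passed the filter. All 8 were higher in atg7 than in uninjected hearts, with a median of 0.56 and 0 called, where 50.9% of all probe sets lay higher, and all 8 were higher than with control morpholino (median 0.45). coro1a, which like lcp1 encodes a leukocyte actin regulator, differed by 0.62 (SE 0.27), laptm5 by 0.51 (SE 0.25) and the actin nucleator subunit arpc1b by 0.34 (SE 0.25). The largest differences, named after their values were seen, were those of the chemokine receptor gene cxcr4b (1.15, SE 0.33) and the phosphatase gene ptpn6 (0.99, SE 0.29). In becn1 hearts 7 of the 8 were higher (median 0.29) and in atg5 hearts 6 of the 8 (median 0.17), with 0 called in each. Their summed signal was 1028 to 1108 in atg7, 698 to 1022 in becn1, 787 to 971 in atg5, 781 to 805 in control morpholino and 739 to 756 in uninjected hearts. lcp1 itself differed by -0.06 (SE 0.51) in atg7 hearts. Which cells carried the RNA of these genes was not tested. In such bulk preparations more cells and more RNA per cell cannot be told apart. Besides ncf1, the oxidase was represented by cyba, its membrane subunit (-0.08, SE 0.31 in atg7), and the activating GTPase gene rac1a (0.13), with neither called in any comparison.

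Among the other metalloproteinases and their regulators, 8 of 39 genes passed the filter and none was called in any of the comparisons with uninjected hearts. In atg7 hearts 1 of the 8 lay higher than in uninjected hearts, with a median of -0.12. With control morpholino alone 0 of the 8 lay higher than in uninjected hearts (median -0.16), and in atg7 against control morpholino 4 of the 8 were higher (median 0.02). mmp2, the other gelatinase gene, was lower (-0.66, SE 0.27), with signals of 144 and 114 in atg7 and 263, 190 and 167 in uninjected hearts. mmp11b, the stromelysin 3 gene, was the higher one (0.50, SE 0.24), and bsg, which encodes an inducer of metalloproteinases, differed by -0.12 (SE 0.17). Inhibitor genes were represented above the filter by timp2a alone (-0.44, SE 0.23, named after its values were seen).

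Collagen and matrix genes, which encode the substrates of these proteases, lay lower in knockdown hearts. All 12 measured genes of 26 were lower than in uninjected hearts in each of the 3 knockdowns. Their medians were -0.61 for atg5, -0.61 for becn1 and -0.72 for atg7. Of all probe sets 52.1%, 53.8% and 50.9% lay higher in these comparisons. With control morpholino 11 of the 12 lay lower (median -0.24), where 50.8% of all probe sets lay higher. In atg7 against control morpholino 3 of the 12 lay higher (median -0.48). In atg7 hearts 3 of the 12 fell past the threshold, where 3.08% of all probe sets were called in either direction. As the list was chosen with earlier results of these data known, no independent evidence is drawn from these counts or calls. The limma adjusted p-values were 0.0387 for the collagen I gene col1a2 (-0.89, SE 0.19) and 0.0482 for col1a1a (-0.97, SE 0.24). For the cartilage collagen gene col10a1a (-1.997, SE 0.46), which was weak on becn1 1, the limma adjusted p was 0.0421. Each of the 3 was no longer called without uninjected 1, uninjected 3, atg7 1 or atg7 2, when the limma adjusted p was 0.0620 to 0.195 for col1a2, 0.0822 to 0.226 for col1a1a and 0.103 to 0.171 for col10a1a. In atg5 and becn1 hearts 0 of the 12 were called. The summed signal of these genes was 4411 to 5620 in atg7 and 7390 to 10433 in uninjected hearts.

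AP-1 genes encode transcription factors that cells switch on early after a stimulus. Of the 12 measured of 23 AP-1 and immediate early genes, 1 was higher in atg7 than in uninjected hearts, with a median of -0.93 and 0 called. junbb had a signal of 291 and 225 in atg7, 673 and 795 in control morpholino, and 319, 1218 and 1408 in uninjected hearts, a difference of -1.68 with an SE of 0.68. fosab (-1.50, SE 0.81) and junba (-1.61, SE 0.67) were spread likewise, with uninjected 1 far below the other uninjected arrays. Against control morpholino 0 of the 12 were higher in atg7 hearts (median -0.71). Within each knockdown group the summed signal of these genes was highest on the array numbered 1, as was mmp13a, at 4135 on atg5 1, 3096 on becn1 1 and 2154 on atg7 1, against 1297 and 3879, 2347 and 2365, and 1795 on the others of those groups. By mean log2 level this order did not hold in atg5, at 7.64 on atg5 1 and 7.65 on atg5 3. Whether the genes are related was not tested. Of the 19 inflammation genes measured of 50, 7 were higher in atg7 than in uninjected hearts (median -0.21) and 9 than with control morpholino (median -0.08), and the chemokine gene cxcl12a was called lower (-1.10, SE 0.27, limma adjusted p = 0.0480, or 0.0534 to 0.176 with any 1 array of the comparison left out). No probe set carried il1b, tnfa or cxcl8a as its only gene symbol, so these cytokine genes were not analysed here.

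Markers of the tissues that could carry mmp9 and mmp13a besides leukocytes were set beside them. Of 22 epidermis genes, 2 were higher in atg7 than in uninjected hearts (median -0.55), and epcam was called lower (-1.04, SE 0.24, limma adjusted p = 0.0410, or 0.0543 to 0.188 with any 1 array of the comparison left out). Of 12 fibroblast and wound-bed genes 0 were higher (median -0.78) and 0 called. Of 6 endothelial genes 4 were higher (median 0.16), of 10 red blood cell genes 6 (median 0.26) and of 13 heart muscle genes 10 (median 0.42), with 0 called in each. Heart muscle and endothelial genes differed between the atg7 arrays, with mean log2 levels of 8.03 and 6.58 on atg7 1. On atg7 2 these levels were 6.23 and 5.94, below those of every control array. Against control morpholino the number higher was 1 of the epidermis genes (median -0.33), 3 of the fibroblast genes (-0.34), 3 of the endothelial genes (0.05), 7 of the red blood cell genes (0.54) and 11 of the heart muscle genes (0.43). The single lymphoid gene above the filter, tox, differed by 0.02. The part of these tissues in the mmp9 and mmp13a differences was not tested.

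**Figure D4:**
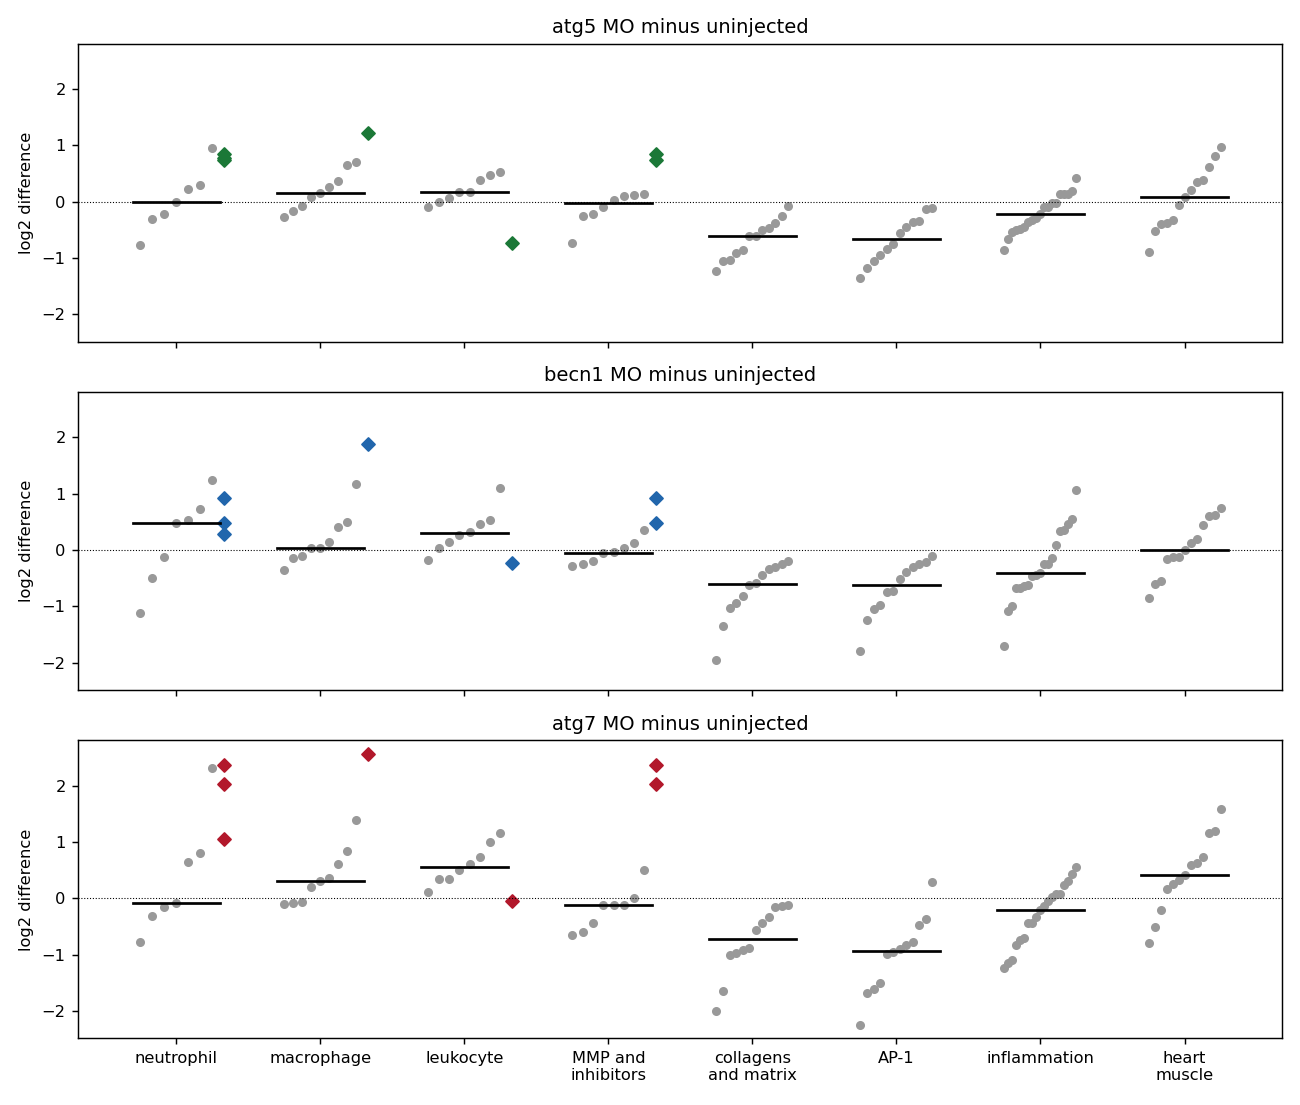
Log2 difference from uninjected hearts (vertical axis) of the genes of 8 lists in atg5, becn1 and atg7 hearts; grey points are genes other than the 5, black bars their medians, and coloured diamonds the 5 genes in the lists that hold them. In atg7 hearts mmp13a and mmp9 stand above the rest of the metalloproteinase list, and all collagen and matrix genes lie below 0 in the 3 panels. As mmp13a and mmp9 were chosen with the atg7 arrays in view, nothing is read from their place in that list.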

How the data were processed

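The authors deposited 1 linear signal intensity per probe set and array, with MAS5 named in the submitters' processing notes and neither its version nor a scaling target given. Of 15617 probe sets 115 controls were left out, and quantile normalization was applied to the log2 intensities of all 13 arrays together. Probe sets over the 40th percentile (a signal of 28.1) on at least 2 arrays were kept, which left 10307 (66.5%). Group means over all 13 arrays were fitted with limma 3.58.1 in R 4.3.3 (lmFit, and eBayes with a trend in the prior variance, 8 residual degrees of freedom), with Benjamini-Hochberg adjustment over all kept probe sets and a threshold of 0.05. The fit was tested on simulated data, but no result of that test is given here and nothing is read from it. Floored differences use signals under 16 set to 16, and their tests are those of the values without the floor. Precision is limited by the number of arrays.

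The 5 genes and the 14 lists were chosen with earlier results of these data known. No independent evidence is drawn from the counts or calls of list genes. Of 357 listed genes 181 were on the array and 142 were kept. From each list the text could name the 3 genes with the highest mean signal, members left out, and every gene called; others are said to be chosen after their values were seen. Symbols come from the platform annotation, updated through RefSeq gene identifiers. The title of becn1 3 names the gene as becn, taken here as becn1. The extract protocol of the labels names tumors as the source of the RNA, whereas the tissue label is heart. Alternatives covered the normalization, the filter, the floor, the reference group, the arrays in the fit, the replicate number as a block and single arrays left out. Residuals of same-numbered arrays correlated above 0.1 in 7 of 7 pairs among knockdown arrays and in 12 of 22 pairs over all groups, so the numbers were taken as pairing the knockdown arrays only, as a pattern in the data that the labels do not state. These pairs are not independent, since residuals sum to 0 within a group.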

Additional observations from a re-analysis of the deposited data

How the results depend on the processing

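Of the 5 genes, 3 were called in atg7 against uninjected hearts, as were 3.08% of all probe sets. As the atg7 arrays helped to choose the genes, and marco entered through knockdown arrays, nothing is read from this count. Its values under the alternatives describe only how it depends on the processing. The count was 3 with median scaling, no normalization, the floor at 16 or the replicate number as a block, and 2 without the filter or with the stricter filter, which only mmp9 and mmp13a passed. It was 0 when only the groups compared were fitted, 1 with the arrays numbered 1 left out (chosen after seeing the data) and 0 to 2 with single arrays left out. Against control morpholino the count of 0 became 3 with both control groups as reference and 1 with no normalization. In the other comparisons it was 0 under every alternative run. Where an omission left 1 array of a group, that array is assumed to vary like the other groups.

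Over all probe sets, 317 were called in atg7 against uninjected hearts (207 higher), 683 with median scaling (534 higher), 122 without the filter, 118 with no normalization (31 higher), 29 when only the groups compared were fitted, 69 with the arrays numbered 1 left out (28 higher) and 11 to 413 with single arrays left out. Against control morpholino the 6 called in atg7 became 137 with both control groups, 29 with no normalization, 18 with the floor, 15 with the arrays numbered 1 left out, 0 without the filter, with the stricter filter or with only the groups compared, and 0 to 2 with single arrays left out. For atg7 against the other knockdowns 3 became 1 with only the groups compared or the stricter filter, and 0 to 6 with single arrays left out. For becn1 against uninjected hearts 1 became 11 with median scaling, 45 with no normalization, 6 with the floor, 2 with the arrays numbered 1 left out, 0 with only the groups compared and 0 to 42 with single arrays left out. For becn1 against control morpholino 0 became 14 with both control groups, 5 with no normalization, 2 with the arrays numbered 1 left out and 0 to 1 with single arrays left out. The cause of these changes was not tested.

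Across all groups the replicate numbers were not taken as pairs: residuals of same-numbered arrays had a median correlation of 0.13 over 22 pairs (-0.41 to 0.62), 12 of them over 0.1, against -0.07 over 45 pairs of different number, 14 of them over 0.1. Among knockdown arrays all 7 same-numbered pairs exceeded 0.1 (0.12 to 0.62), and in atg7 against the other knockdowns the block left the calls at 3 over all probe sets and 0 of the 5 genes. Residuals sum to 0 within a group, so the 2 atg7 arrays are exact opposites and the pairs are not independent. becn1 1 had 0.62 with atg7 1 and -0.62 with atg7 2, which partly fixes the contrast with pairs of different number. With the replicate number as a block, calls over all probe sets were 178 for atg7 and 6 for becn1 against uninjected hearts, 0 for atg7 and 25 for becn1 against control morpholino, and 1 for atg5 against uninjected hearts, where it had been 0.

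Of the alternative values for single genes 489 were counted as the same, 28 as moved and 14 as reversed. A value counted as the same could still change sign. For mmp9 in becn1 against control morpholino (0.28), values ran from -0.049 to 0.56 with single arrays left out, all counted as the same. For control morpholino against uninjected hearts, mmp13a (-0.00) became 0.011 with median scaling, 0.23 with the replicate block, 0.13 with the arrays numbered 1 left out and -0.67 to 0.66 with single arrays left out. In that comparison mmp9 became -0.12 and ncf1 -0.041 with no normalization, mmp9 ranged from -0.11 to 0.48 and lcp1 from -0.82 to 0.64 with single arrays left out. In becn1 against uninjected hearts ncf1 became -0.062 with the arrays numbered 1 left out, and lcp1 ranged from -0.57 to 0.13 with single arrays left out. Signals near background limit marco, ncf1 and lcp1, whose differences have no exact size under 16.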
